A study of Mus musculus with 8 samples.

Results

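The mitochondrial genome of the mouse is a small circle of DNA that encodes 13 proteins of the respiratory chain and ATP synthase, together with the rRNAs and tRNAs that translate them. The genes described here are 10 of those 13 protein genes, chosen by name, in a table of 55421 genes. They are mt-Nd1, mt-Nd2, mt-Nd3, mt-Nd4, mt-Nd4l, mt-Nd5 and mt-Nd6 of complex I (NADH dehydrogenase), mt-Cytb of complex III, mt-Co1 of complex IV (cytochrome c oxidase) and mt-Atp8 of ATP synthase. Of the 10, 7 had transcripts and were tested, and 3 (mt-Nd3, mt-Nd4l and mt-Atp8) were listed at 0 in all libraries. The remaining genes of the 13, mt-Co2, mt-Co3 and mt-Atp6, were listed at 0 as well, so 6 of the 13 have no measurement.

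RNA was taken from mouse embryos of embryonic day 9.5, from the vagal region next to somites 1 to 7. Of the libraries, prepared with a stranded kit after poly-A selection, 4 carry the trex allele of Rdh10 on both chromosomes (trex) and 4 are wt. The product of Rdh10 oxidises retinol to retinaldehyde, a step on the way to retinoic acid, and the study asked how gene expression differs between the genotypes. Replicates are numbered 1 to 4 in each group, and the wt samples are titled 5 to 8. Pooling, strain, sex and litter are not stated in the labels. Separate animals behind the replicates are therefore not given, and the spread that p-values measure may be in part technical.

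Both strands of the mitochondrial genome are transcribed as long precursors. Most genes are read from the heavy-strand promoter, while mt-Nd6 and a few tRNAs come from the light strand. The tRNAs punctuate the precursors, and cutting them out releases the mRNAs and rRNAs, most of which then receive a short poly-A tail. The level of these transcripts depends on mitochondrial DNA copy number, on the polymerase Polrmt with its factor Tfam, and on mRNA stability, in which Lrpprc takes part.

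The deposited values are TPM, a level per gene length that is scaled to the same total in every library. The whole reads behind them, recovered from the steps between low values, came to between 20928981 and 23648646 per library. Every pair of replicates differed by more than sampling noise (chi-square per gene of at least 4.97). Trex replicate 1 was the most distant from its group, with a chi-square per gene of 41.8 to 68.2 against the other trex libraries. Rdh10 itself stood at 106, 66.2, 62.7 and 69.0 TPM in trex replicates 1 to 4 and at 41.0, 36.3, 40.3 and 37.6 TPM in wt replicates 1 to 4. What the allele does to its own transcript is not stated, and this level is no check of the labels. All 10 markers each of neurons and of mesenchyme were detected in every library. Over the whole table limma called 777 genes higher and 592 lower in trex among 15717 tested, which is 4.94% and 3.77%. After quantile normalization the split was 633 higher and 739 lower, and with limma voom on the recovered reads 633 and 809. With 1 library left out, the count of calls ran from 201 (without wt replicate 2) to 2911 (without trex replicate 2).

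The 6 protein genes at 0 follow each other in the mitochondrial genome, from 7013 to 10173, and 5 of them also have annotated copies in the nuclear genome. Sequences were read from the GENCODE M21 transcripts (GRCm38, the assembly of the mm10 build named in the submitters' processing notes). A row of 7 annotated pseudogenes on chromosome 1, minus strand, from 24611535 to 24616197, repeats the order from the end of mt-Co1 to the front of mt-Nd4. In 5 of the 7 copies the aligned bases had no mismatch. The mt-Nd4l gene (ENSMUSG00000065947, exonic, plus strand) is shown because the pseudogene Gm10222 holds 294 of its 297 bases without a difference. Capitals mark the 3 bases at its end that the copy lacks, and the position is chrM:9877-10173.
mt-Nd4l: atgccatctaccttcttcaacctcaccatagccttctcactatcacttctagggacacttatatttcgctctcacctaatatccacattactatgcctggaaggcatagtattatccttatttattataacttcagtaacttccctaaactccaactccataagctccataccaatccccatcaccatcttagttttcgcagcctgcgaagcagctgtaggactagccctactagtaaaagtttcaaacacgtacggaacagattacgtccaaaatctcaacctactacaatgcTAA
The beginnings of mt-Nd3 (ENSMUSG00000064360, chrM:9459-9491, plus strand) and of its copy Gm28438 (ENSMUSG00000101939, chr1:24613087-24613119, minus strand) are shown because they hold the single difference in 345 aligned bases. It is T3C, counted from 1 at the first base of mt-Nd3, with the mitochondrial base first and the differing base in capitals.
mt-Nd3: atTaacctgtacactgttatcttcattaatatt
Gm28438: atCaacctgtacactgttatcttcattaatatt
The remaining member at 0, mt-Atp8 (ENSMUSG00000064356, chrM:7766-7969, plus strand), lies between mt-Co2 and mt-Atp6. Its last 43 bases, in capitals, are also the first bases of mt-Atp6. No transcript outside the mitochondrial genome held a run of 50 of its bases, and those 43 bases are too few for such a run. They lie in bases 1 to 678 of mt-Atp6, which aligned to Gm10925 on chromosome 1 without a mismatch. Nuclear sequence outside annotated transcripts was not searched. This includes the stretch between Gm10925 (to 24614651) and Gm28661, the copy of mt-Co2 (from 24614885). Whether that stretch holds the rest of mt-Atp8 was not tested.
mt-Atp8: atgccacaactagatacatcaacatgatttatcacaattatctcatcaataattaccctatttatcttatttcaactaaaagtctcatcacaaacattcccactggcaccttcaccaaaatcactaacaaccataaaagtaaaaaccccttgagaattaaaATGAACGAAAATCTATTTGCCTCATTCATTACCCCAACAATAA

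Among the members with transcripts, the overlap with nuclear copies was uneven. The share of bases in runs of 50 that also occur in a transcript of a nuclear gene was 0% for mt-Nd1, mt-Nd6 and mt-Cytb, 17.2% for mt-Nd2, 24.3% for mt-Nd5, 63.6% for mt-Nd4 and 74.9% for mt-Co1. It was 98.3% for mt-Nd3 and 99.0% for mt-Nd4l. How the authors treated reads that fit several places is not given in the sources used here, and the part of such reads in these zeros was not tested. The levels of mt-Co1 and mt-Nd4 relative to other genes are therefore uncertain. The copies themselves held 0.000887% ± 0.000433 of TPM in trex, against 0.00211% ± 0.000398 in wt (SD, n = 4 each). Gm28438, the copy of mt-Nd3, stood at 1.00, 7.56, 3.28 and 5.43 TPM in trex, against 11.7, 13.3, 12.9 and 19.5 TPM in wt. These levels rested on 2, 15, 6 and 11 recovered reads in trex and 22, 26, 26 and 39 in wt. With a single difference in 345 aligned bases, most of the copy cannot be told from mt-Nd3. Whether its reads came from mt-Nd3 was not tested. All trex libraries were below all wt libraries, and Gm28438 was called lower in limma (log2 difference -1.69 ± 0.40, SE, adjusted p = 0.0387). The call ended without trex replicate 3 or 4 or any single wt library, the adjusted p reaching 0.108 without wt replicate 2, and it ended with sex as a covariate (0.180), without a filter on low values (0.0778), without a trend in eBayes (0.055) and at a pseudocount of 0.1 (0.0526). Gm13340, a copy of mt-Co1 on chromosome 2, stood at 2.13, 2.59, 2.20 and 1.76 TPM in trex, against 2.62, 3.54, 3.77 and 3.79 TPM in wt, with an adjusted p of 0.0739. It rested on 16 to 23 recovered reads in trex and 22 to 34 in wt, and was called lower without trex replicate 2 (adjusted p = 0.0451).

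All 7 measured members had lower mean levels in trex, and none passed the adjusted threshold. Trex replicates 1, 3 and 4 stood below every wt library in 6 of the 7 genes, the exception being mt-Nd6 in trex replicate 4, while trex replicate 2 stood near the wt libraries. The summed level of the members was 2.41%, 6.71%, 4.56% and 4.21% of TPM in trex replicates 1 to 4, with a mean of 4.47% ± 1.76 (SD, n = 4). In wt replicates 1 to 4 it was 6.37%, 7.33%, 6.76% and 7.50%, with a mean of 6.99% ± 0.520 (SD, n = 4). Trex replicate 2 lay inside the wt range and the other trex libraries lay below it. In tissue, fewer cells of a mitochondria-rich type and fewer transcripts per cell cannot be told apart.

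**Figure D1:**
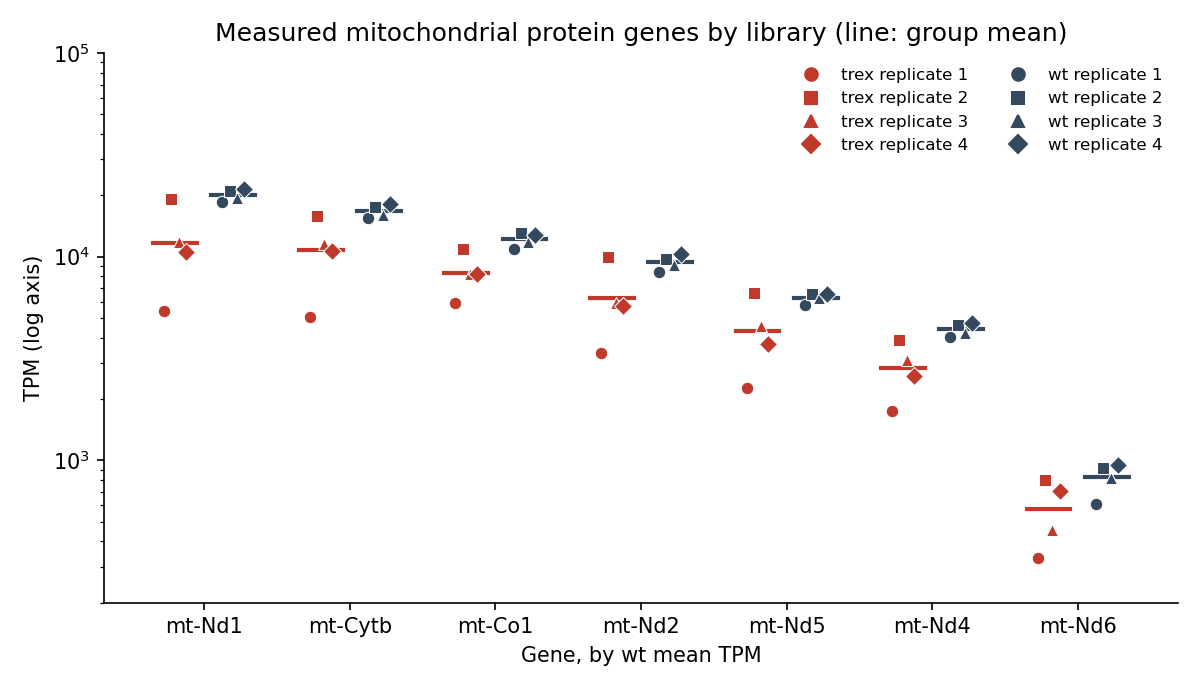
Level in TPM (log axis) of the 7 measured members in each library, trex left of wt for each gene, with a point for each replicate and a line at the group mean. Trex replicate 1 is the lowest library for every gene, and trex replicate 2 is the highest trex library for every gene, near the wt points.

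By listed level per length, mt-Nd1 was the highest of the 7 measured members. This first complex I gene behind the rRNAs (ENSMUSG00000064341, mitochondrial genome, 2751 to 3707) stood at 5428, 19162, 11820 and 10490 TPM in trex, against 18537, 20907, 19296 and 21473 TPM in wt. Trex replicate 2 fell between wt values and the other trex libraries were below every wt library. The means were 11725 ± 5672 and 20053 ± 1368 TPM (SD, n = 4 each), a wt to trex ratio of 1.71. The log2 difference, trex minus wt on the log2(TPM + 1) scale, was -0.91 ± 0.33 (SE), and limma gave an adjusted p of 0.113. It rested on 29963 to 105526 recovered reads in trex and 96399 to 119413 in wt.

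Of the other complex I genes, mt-Nd4 (ENSMUSG00000064363, 10167 to 11544), which encodes a proton-pumping membrane subunit, was the one whose groups did not overlap. It stood at 1747, 3911, 3102 and 2579 TPM in trex, against 4024, 4617, 4221 and 4696 TPM in wt. The highest trex library was just below the lowest wt library. Its log2 difference was -0.69 ± 0.22 (SE), its adjusted p in limma 0.0819. Among the 7 exact permutation tests (two-sided), that of mt-Nd4 reached 0.0286, the smallest p that 4 libraries against 4 allow. For mt-Nd2 (3914 to 4951), another membrane subunit, the values were 3369, 9940, 5896 and 5754 TPM in trex, against 8372, 9752, 9090 and 10338 TPM in wt, where trex replicate 2 lay inside the wt range. Its log2 difference was -0.69 ± 0.28 (adjusted p = 0.145 in limma). For mt-Nd5 (11742 to 13565), at the far end of the membrane arm, they were 2257, 6643, 4588 and 3716 TPM in trex, against 5809, 6551, 6270 and 6530 TPM in wt. Trex replicate 2 held more mt-Nd5 than any wt library, and the other trex libraries held less than any.

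The light-strand gene mt-Nd6 (ENSMUSG00000064368, 13552 to 14070, minus strand) had the lowest listed level of the measured members and was the most variable in wt. What the poly-A selection retained of its transcripts was not measured. This rank and its ratio to other members therefore need not be those of abundance. The listed level of mt-Nd6 was 330, 802, 457 and 708 TPM in trex, against 611, 919, 819 and 946 TPM in wt, and the groups overlapped in trex replicates 2 and 4. In limma its adjusted p was 0.193, for a log2 difference of -0.59 ± 0.27 (SE). Its 14-base overlap with mt-Nd5 on the opposite strand is short against its length. Whether counting used the strand is not given in the sources used here, so reads antisense to either gene cannot be told apart from its own. The log2 ratio of mt-Nd6 to mt-Nd5 within a library, which does not depend on the library total, was -2.77, -3.05, -3.33 and -2.39 in trex and -3.25, -2.83, -2.94 and -2.79 in wt. The difference was 0.06 (exact two-sided permutation p = 0.800, adjusted over 2 ratios 0.800), and it was -0.10 without trex replicate 4 and -0.035 without wt replicate 1.

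The members of complexes III and IV followed the same pattern. Mt-Cytb, the cytochrome b subunit (ENSMUSG00000064370, 14145 to 15288), stood at 5054, 15765, 11523 and 10651 TPM in trex, against 15420, 17515, 16073 and 18132 TPM in wt. Trex replicate 2 lay between the 2 lowest wt values. In limma the log2 difference came to -0.75 ± 0.30 (SE; adjusted p = 0.145). Mt-Co1, the catalytic subunit of cytochrome c oxidase (ENSMUSG00000064351, 5328 to 6872), stood at 5939, 10878, 8209 and 8180 TPM in trex, against 10886, 13022, 11860 and 12839 TPM in wt. The highest trex value and the lowest wt value nearly met without crossing. Its log2 difference of -0.58 ± 0.18 (SE) was the smallest of the 7 and had the smallest adjusted p, 0.0756 in limma, with an exact two-sided permutation p of 0.0286. Over all tested genes, the trex libraries lay below all wt libraries in 8.95%.

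Counted together, 0 of the 7 measured members were called in limma, against 8.71% of all tested genes called in either direction and 3.77% called lower. At an unadjusted p under 0.05, 6 of the 7 were lower, against 29.0% of all tested genes in either direction and 11.6% lower. That count was 1 of 7 after quantile normalization and 1 of 7 with sex as a covariate. Quantile normalization also brought the log2 difference to -0.40 for mt-Nd1, -0.33 for mt-Cytb and -0.20 for mt-Co1. With it, mt-Nd2 stood at -0.58, mt-Nd5 at -0.64, mt-Nd6 at -0.62 and mt-Nd4 at -0.75. Without that normalization, the log2 differences ran from -0.91 to -0.58 with a median of -0.69, and the median of all tested genes was 0.039. Calls changed with the libraries included. Without trex replicate 2, limma called 6 of the 7, all lower, with adjusted p from 0.017 to 0.0724 and a median log2 difference of -0.90, against 7.69% of all tested genes called lower. Without trex replicate 1, 0 of the 7 were called, against 4.59% of all tested genes called lower, and the median was -0.43. With array weights, which give libraries that vary more a smaller part in the fit, all 7 were called lower, against 13.8% of all tested genes. Limma voom on the recovered reads called mt-Co1 (adjusted p = 0.0453), against 5.15% of genes called lower.

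**Figure D2:**
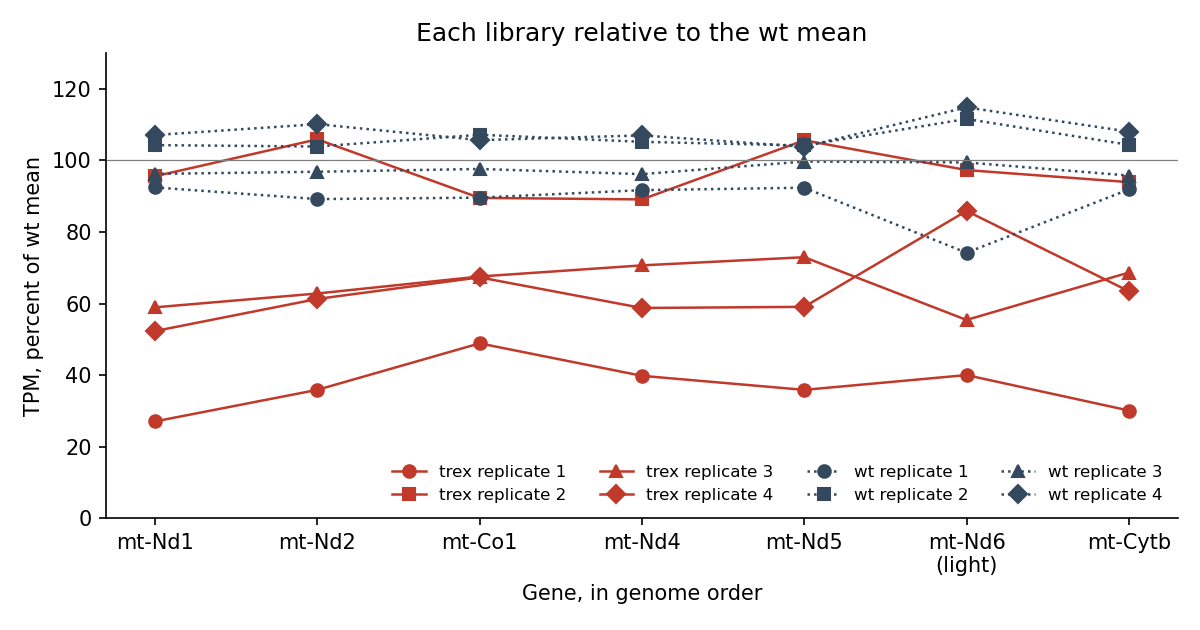
Level of each measured member in each library as a percent of the wt mean TPM of that gene, genes in genome order along the x axis, trex libraries as solid red lines and wt libraries as dotted dark lines. Trex replicate 1 runs from 27.1% to 48.9%, trex replicates 3 and 4 from 52.3% to 85.9%, and trex replicate 2 from 89.1% to 106%.

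The members were not lowered evenly in the trex libraries. In trex replicate 1, mt-Nd1 stood at 27.1% of its wt mean and mt-Co1 at 48.9%. In trex replicate 4, mt-Nd1 stood at 52.3% and mt-Nd6 at 85.9%, whereas in trex replicate 3 mt-Nd6 was the lowest at 55.4% and mt-Nd5 the highest at 72.9%. Trex replicate 2 ranged from 89.1% for mt-Nd4 to 106% for mt-Nd2. As a share of the summed members, mt-Nd1 made up 22.5%, 28.6%, 25.9% and 24.9% in trex and between 28.5% and 29.1% in wt. The share of mt-Co1 was 24.6%, 16.2%, 18.0% and 19.4% in trex and between 17.1% and 17.8% in wt. The log2 ratio of mt-Co1 to mt-Nd1 was 0.13, -0.82, -0.53 and -0.36 in trex and -0.77, -0.68, -0.70 and -0.74 in wt. The difference of 0.33 gave an exact two-sided permutation p of 0.143, or 0.286 adjusted over the 2 ratios, and it was 0.157 without trex replicate 1.

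The order of listed levels was fixed in wt and mostly kept within single trex libraries. In wt it ran mt-Nd1, mt-Cytb, mt-Co1, mt-Nd2, mt-Nd5, mt-Nd4, mt-Nd6, from 20053 to 824 TPM, and the ranges of neighbours did not overlap. Runs shared with nuclear copies covered 74.9% of mt-Co1, 63.6% of mt-Nd4, 24.3% of mt-Nd5 and 17.2% of mt-Nd2, so it need not be an order of abundance. The trex means had the same order, from 11725 to 574 TPM, but the ranges of all neighbours overlapped except those of mt-Nd4 and mt-Nd6. Within single trex libraries mt-Nd1 exceeded mt-Cytb in 3 of 4, and mt-Cytb exceeded mt-Co1 in 3 of 4. The other neighbours kept their order in 4 of 4. Over the 8 libraries, Pearson correlations between members on the log2 scale ran from 0.851 for mt-Nd5 with mt-Nd6 to 0.993 for mt-Nd1 with mt-Nd2. These points share a library total and fall into genotypes, so they are a description.

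The rRNA genes, which are transcribed ahead of mt-Nd1, had mean differences of opposite sign. Mt-Rnr1, of the small mitochondrial ribosomal subunit (ENSMUSG00000064337, 70 to 1024), stood at 1299, 1778, 1265 and 1370 TPM in trex, against 1094, 1149, 1096 and 1080 TPM in wt, with all trex libraries above all wt libraries. Such a gap in that direction was seen in 12.9% of all tested genes. Mt-Rnr2, of the large subunit (ENSMUSG00000064339, 1094 to 2675), stood at 510, 1400, 659 and 710 TPM in trex, against 1327, 1463, 1478 and 1779 TPM in wt. Neither was called in limma. Mt-Rnr1 differed by 0.36 ± 0.10 (log2, SE; adjusted p = 0.0667) and mt-Rnr2 by -0.98 ± 0.27 (adjusted p = 0.0571). Without trex replicate 2 both were called, with adjusted p of 0.0186 and 0.00261, and array weights called both (0.0221 and 0.000723). Mt-Rnr2 was also called after quantile normalization (0.044) and with limma voom (0.0438). The ratio of mt-Rnr2 to mt-Rnr1 was 0.393, 0.787, 0.521 and 0.518 in trex and 1.21, 1.27, 1.35 and 1.65 in wt. This ratio was chosen after its values were seen and was not tested. Trex replicate 2, which resembled wt in its mRNAs, held the highest mt-Rnr1 level of all libraries and a ratio below every wt library. Levels of rRNA in poly-A libraries depend on which rRNAs the selection retains, which was not measured here.

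Among tRNA genes, the median difference was lower for the heavy-strand transcripts than for the light-strand transcripts. Of 22 tRNA genes, 10 were listed at 0 in all libraries and 12 were tested, 6 from each transcript. Limma called 2 lower, mt-Tl1 and mt-Tv, both of the heavy-strand transcript. The median log2 difference was -2.01 over the 6 heavy-strand genes and -0.47 over the 6 light-strand genes, and the difference between these sets was not tested. No tRNA gene had more than 157 recovered reads in a library, so counting error is larger here than for the mRNAs. What the poly-A selection retained of tRNA transcripts was not measured. These values therefore need not be levels of the tRNAs cut from the precursors. Mt-Tl1, a leucine tRNA gene (ENSMUSG00000064340) that lies directly between mt-Rnr2 and mt-Nd1, is printed because it is the called tRNA gene with more than 4 recovered reads in a library. Its position is chrM:2676-2750, plus strand.
mt-Tl1: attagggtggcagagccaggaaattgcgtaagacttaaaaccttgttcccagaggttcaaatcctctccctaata
It stood at 6.93, 90.4, 7.54 and 22.7 TPM in trex, against 169, 155, 112 and 138 TPM in wt, from 3, 39, 3 and 10 recovered reads in trex and 69, 66, 49 and 60 in wt. All trex libraries were below all wt libraries. The log2 difference was -2.87 ± 0.69 (SE; adjusted p = 0.040 in limma). The call held without trex replicate 2 and ended without any other single library, the adjusted p reaching 0.117 without wt replicate 2. It also ended without a filter on low values (adjusted p = 0.0795), without a trend in eBayes (0.0584) and with sex as a covariate (0.185). Per 1000 TPM of mt-Nd1, mt-Tl1 held 1.28, 4.72, 0.638 and 2.16 TPM in trex, against 9.13, 7.42, 5.80 and 6.41 TPM in wt. Mt-Tv, of valine, rested on at most 4 recovered reads in a library and was at 0 in trex replicates 1, 3 and 4. Its adjusted p of 0.0473 moved above 0.05 without trex replicate 1, 3 or 4 or any single wt library, reaching 0.127 without wt replicate 2. The call also ended at a pseudocount of 5 (0.0701), without a filter (0.0931), without a trend (0.0644), with sex as a covariate (0.265) and with voom (0.0847). The log2 difference of mt-Tv depended on the pseudocount, at -4.28 with 0.1, -1.98 with 1 and -0.80 with 5. Mt-Tw and mt-Tt, of tryptophan and threonine, also lay lower in every trex library than in any wt library, with adjusted p of 0.0908 and 0.106, and both were called when trex replicate 1 was left out. These genes were picked out after their values were seen.

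**Figure D3:**
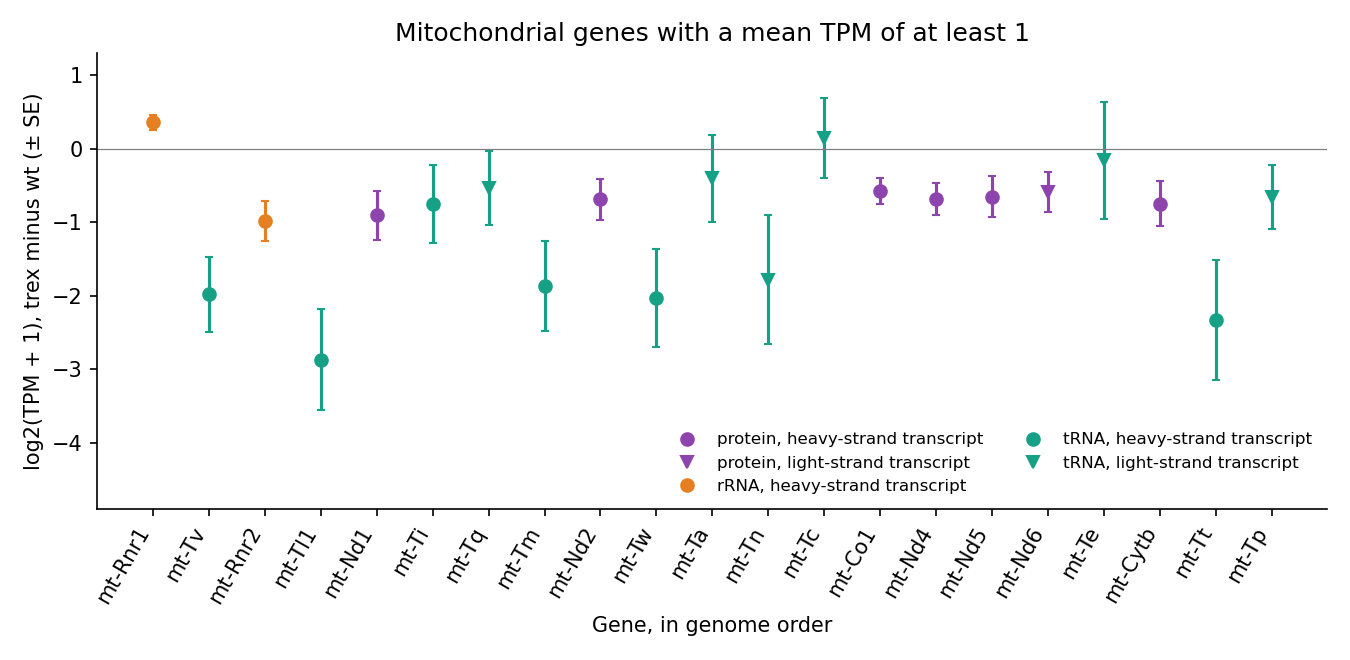
Log2 difference, trex minus wt on the log2(TPM + 1) scale, with its standard error (bars) for the 21 mitochondrial genes tested, in genome order, with colour for the kind of gene and circles or triangles for the strand. The 7 protein genes lie between -0.91 and -0.58, mt-Rnr1 lies at 0.36, and 5 of the 6 heavy-strand tRNA genes lie lowest, down to -2.87, with mt-Ti at -0.76.

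Most nuclear genes that act on the mitochondrial genome were not called, as was so for all tested genes, of which 4.94% were called higher and 3.77% lower. Of 22 genes of mitochondrial DNA transcription and replication, 1 rose, none fell, and the median log2 difference was 0.078. The polymerase gene Polrmt stood at 28.6, 38.2, 30.5 and 29.6 TPM in trex, against 35.4, 33.5, 36.6 and 33.7 TPM in wt (adjusted p = 0.339 in limma). Its order over the 4 trex libraries was that of the summed level of the members, but its order over the 4 wt libraries was not. In wt, Polrmt was highest in replicate 3 and the members in replicate 4. Trex replicate 2 held the most Polrmt of all libraries. A link between Polrmt and the members was not tested. Without trex replicate 2 Polrmt was called lower (adjusted p = 0.0308). Tfam, the packaging and transcription factor, stood at 111 ± 10.9 TPM in trex, against 113 ± 2.53 TPM in wt (SD, n = 4 each; adjusted p = 0.772 in limma), and the highest value, 127 TPM, was in trex replicate 1. The called gene was Top1mt, the mitochondrial topoisomerase, at 39.7, 25.9, 25.3 and 23.8 TPM in trex, against 20.1, 18.7, 17.9 and 17.9 TPM in wt (adjusted p = 0.0493 in limma). Of 23 genes of mitochondrial RNA processing and stability, none rose and 1 fell. It was Angel2, which belongs to a family of RNA-trimming enzymes, at 56.5 ± 5.92 TPM in trex, against 70.2 ± 0.924 TPM in wt (SD, n = 4 each; adjusted p = 0.0386 in limma). Lrpprc, which stabilises mitochondrial mRNAs, stood at 73.9 ± 6.83 and 67.0 ± 0.876 TPM (adjusted p = 0.199). All trex libraries were above all wt libraries, a gap seen in that direction in 12.9% of all tested genes. With array weights Lrpprc was called higher (adjusted p = 0.0225), in a setting that called 5524 of 15717 genes.

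The nuclear partners of the members in the respiratory chain were close to wt. In complex I, 1 of 37 tested subunit genes rose and none fell, with a median log2 difference of -0.049. The riser was Ndufv3, an accessory subunit, at 111, 64.7, 82.5 and 99.98 TPM in trex, against 49.0, 51.8, 47.8 and 50.7 TPM in wt (adjusted p = 0.0172 in limma). None of 4 genes of complex II, which has no mitochondrially encoded subunit, nor of 9 of complex III, 12 of complex IV and 17 of ATP synthase was called. Their median log2 differences were -0.060, -0.086, -0.030 and -0.078, against -0.69 for the measured members. Among 76 mitochondrial ribosomal protein genes 2 fell and none rose, against 3.77% of all tested genes called lower and 4.94% called higher. Without trex replicate 2 the counts were 13 and 1, against 7.69% of all tested genes called lower. Mrpl34 stood at 195 ± 23.3 TPM in trex, against 260 ± 14.4 in wt, and Mrps22 at 47.7 ± 1.72 and 54.6 ± 1.26 (SD, n = 4 each; adjusted p = 0.0267 and 0.0389 in limma). None of 9 biogenesis regulators was called. Ppargc1a, their best known coactivator, stood at 3.67 ± 1.82 TPM in trex, against 2.29 ± 0.819 TPM in wt (adjusted p = 0.341).

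**Figure D4:**
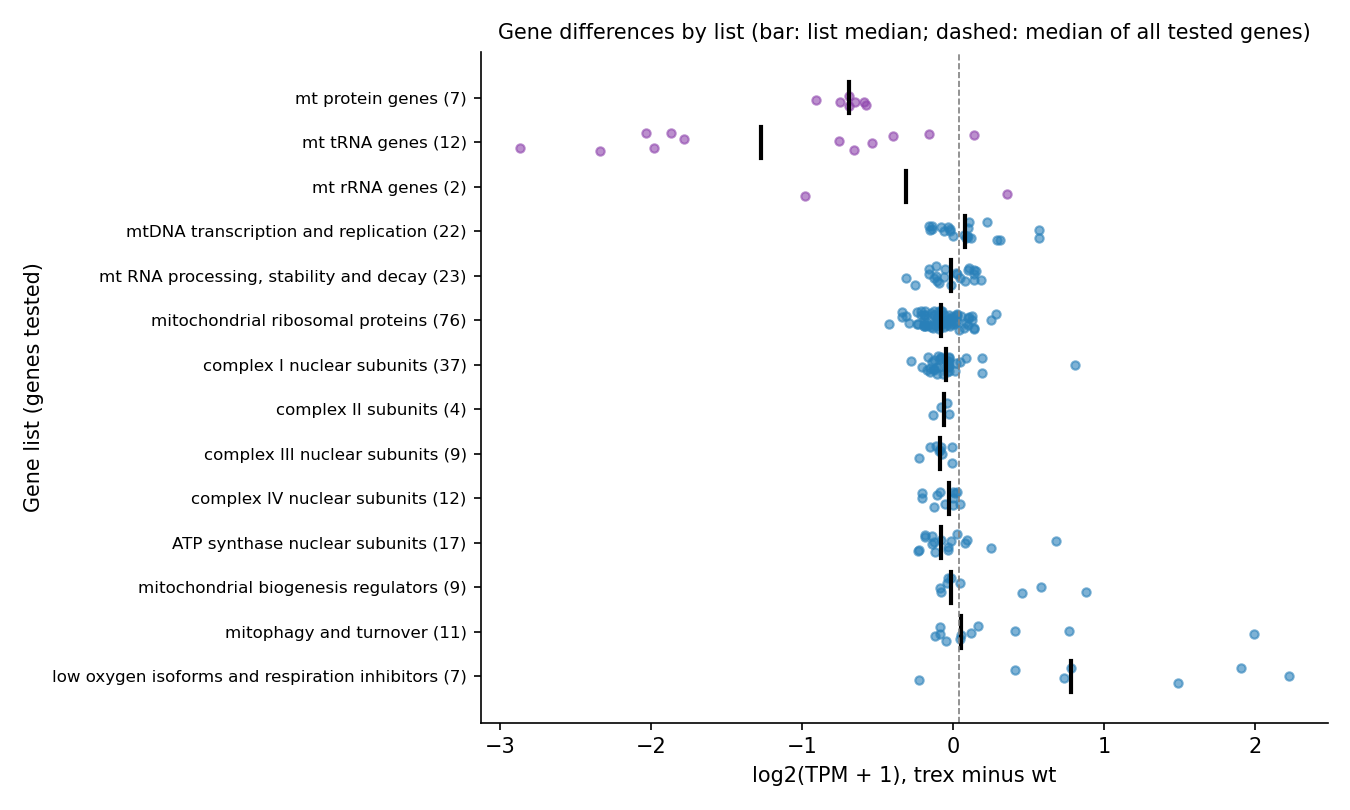
Log2 difference, trex minus wt on the log2(TPM + 1) scale, of each tested gene (points) by gene list, with the list median (bar) and the median of all tested genes (dashed line), mitochondrially encoded lists in purple and nuclear lists in blue. The measured mitochondrial protein genes centre at -0.69, while the nuclear subunit lists of the 5 complexes centre between -0.086 and -0.030.

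Some genes of mitochondrial turnover and of low oxygen had larger changes. Of 11 genes of mitophagy and turnover, 2 rose and none fell, against 4.94% of all tested genes called higher. The median log2 difference of this list was 0.054, against 0.039 for all tested genes. Bnip3, a mitophagy receptor induced by low oxygen, stood at 458, 119, 245 and 364 TPM in trex, against 62.3, 78.8, 62.2 and 61.5 TPM in wt (adjusted p = 0.0171 in limma). Lonp1, the matrix protease that degrades Tfam, stood at 223, 161, 174 and 200 TPM in trex, against 143, 137, 146 and 138 TPM in wt (adjusted p = 0.034). Of 7 low oxygen isoforms and respiration inhibitors, 2 rose and none fell, with a median log2 difference of 0.78. Pdk1, the kinase that restrains entry of pyruvate into mitochondria-based oxidation, stood at 274, 89.8, 135 and 166 TPM in trex, against 50.2, 56.8, 51.7 and 57.8 TPM in wt. Higd1a, a respiratory chain regulator, stood at 120, 56.9, 75.5 and 94.2 TPM in trex, against 45.7, 48.6, 46.9 and 52.2 TPM in wt (adjusted p = 0.020 and 0.0432 in limma). In each of the 4 genes trex replicate 1 was the highest library and trex replicate 2 the lowest trex library. Of the 9 calls of nuclear genes named here and in the accounts of mitochondrial DNA, RNA, complex I and ribosomal genes, each ended without trex replicate 4 and without wt replicate 1, 2 or 3. Without wt replicate 2 their adjusted p ran from 0.0559 for Bnip3 to 0.131 for Top1mt. The calls of Top1mt, Angel2, Mrps22, Lonp1 and Higd1a also ended without trex replicate 3, and those 5 and that of Mrpl34 without wt replicate 4. With sex as a covariate all 9 ended, with adjusted p from 0.117 to 0.234. That of Top1mt ended as well at a pseudocount of 5 (0.055), without a filter (0.093) or a trend (0.0685), after quantile normalization (0.051), relative to nuclear transcripts (0.0506) and with voom (0.0598).

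Library values of other gene lists are set beside the level of the members. The mean log2 level of the 7 measured members was 11.32, 12.73, 12.16 and 12.13 in trex and 12.61, 12.87, 12.75 and 12.90 in wt. The mean log2 level of 21 low oxygen and glycolysis genes was 8.34, 6.68, 7.45 and 7.88 in trex and between 6.18 and 6.24 in wt, and 16 of the 21 rose in limma. That count was 0 with sex as a covariate, 1 without wt replicate 2 and 4 without trex replicate 4 or wt replicate 1 or 3. Bnip3, Pdk1 and Higd1a, named above, are among the 21. The trex library lowest in members was the highest in this list. Neuron markers, of which 9 of 10 fell in limma (0 with sex as a covariate, 3 without wt replicate 2, and 5 without trex replicate 4 or wt replicate 1 or 3), had a mean log2 level of 2.64, 4.00, 3.96 and 3.55 in trex and 5.71, 5.67, 5.10 and 4.93 in wt, with summed levels of 89.5 to 214 TPM in trex, against 423 to 729 TPM in wt. The 10 mesenchyme markers, 3 of which rose (0 with sex as a covariate, 1 without wt replicate 2), summed to 1156 to 1569 TPM in trex, against 1012 to 1080 TPM in wt. Cardiomyocyte markers, of a cell rich in mitochondria, summed to 227, 258, 2179 and 2626 TPM in trex, against 313, 1262, 665 and 2674 TPM in wt, with none of 10 called. Primitive erythroid markers summed to 3116, 9505, 15952 and 14025 TPM in trex, against 16184, 12662, 13684 and 7261 TPM in wt, again with none of 10 called. Liver markers summed to 10.9, 33.7, 264 and 504 TPM in trex, against 15.3, 8.80, 186 and 202 TPM in wt, with none of 10 called. No marker of these 5 lists was at 0 in all libraries. The summed Y-linked transcripts were 162 TPM in wt replicate 2 and 158 TPM in wt replicate 3, and no other library exceeded 0.0662 TPM. With sex as a covariate limma called 39 genes and no member. The libraries with high Y-linked levels were all wt, so this covariate partly overlaps with genotype. With it the median log2 difference of the members was -0.68, and that of mt-Nd1 was -0.91 ± 0.43 (SE), against ± 0.33 without it. Cardiomyocyte and liver markers were low in both trex replicate 1, the lowest in members, and trex replicate 2, the highest of the trex libraries. Primitive erythroid markers summed to 3116 TPM in the former and 9505 TPM in the latter. The sums of all 5 marker lists were lower in trex replicate 1 than in trex replicate 2. The part of these values in the level of the members was not tested.

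**Figure D5:**
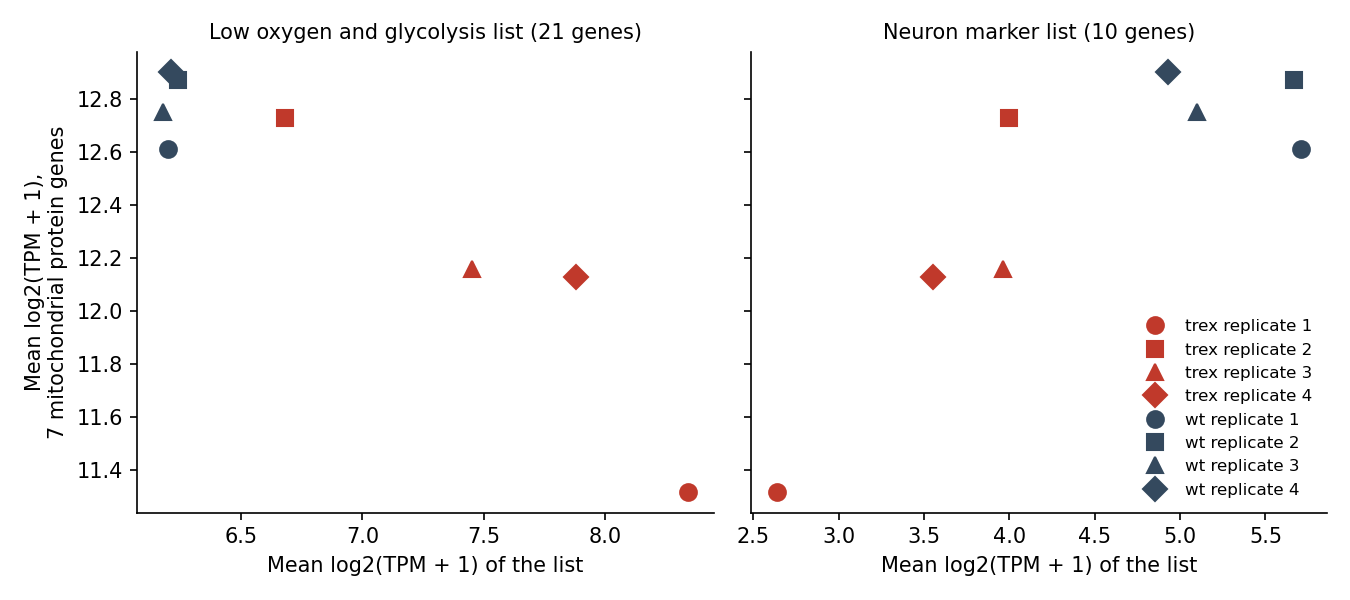
Mean log2(TPM + 1) of the 7 measured members (y axis) against the mean of the low oxygen and glycolysis list (left, 21 genes) and of the neuron markers (right, 10 genes), with 1 point for each library, trex in red and wt in dark blue. Trex replicate 1 is lowest in members at 11.32, highest in the low oxygen list at 8.34 and lowest in neuron markers at 2.64, and trex replicate 2 at 12.73 lies within the wt range of 12.61 to 12.90.

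Among the nuclear genes most like the members over the 8 libraries were Cby1, Opa3, Wars and Serp1, with Pearson correlations of up to 0.994 with the mean log2 level of the members. Opa3 encodes a mitochondrial membrane protein, and stood at 48.7, 73.9, 65.8 and 62.1 TPM in trex, against 71.9, 76.7, 76.7 and 78.4 TPM in wt. Wars charges the cytosolic tRNA for tryptophan. The most opposed were Cds2, Spice1, Gstm4, Fam122b and Dguok, from -0.995 to -0.991. Dguok, the mitochondrial deoxyguanosine kinase that supplies nucleotides for mitochondrial DNA, stood at 24.9, 15.6, 19.0 and 19.1 TPM in trex, against 16.8, 15.2, 16.3 and 14.4 TPM in wt. None of these 9 genes was called in limma, with adjusted p from 0.108 to 0.182, while 6 of the 9 had an exact two-sided permutation p of 0.0571 and the others 0.0286 or 0.0857. Such correlations were common. Of 9498 protein genes compared, 602 reached 0.9 and 1043 reached -0.9, and the libraries share genotype and a distant trex replicate 1.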

How the data were processed

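RNA was measured in 8 libraries, 4 trex and 4 wt. The authors deposited 1 table of TPM, normalized by gene length and library total. The submitters' processing notes name mm10, STAR and CASAVA 1.8.2. The sources used here do not give the read counter, its strand setting, how reads with several positions were treated, or gene lengths. Of 55421 identifiers, 55240 matched GENCODE M21, which gave symbols, positions and exonic lengths.

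TPM times exonic length gave whole multiples of 1 step, within 0.001 read, for 98.7% to 98.9% of low values (under 200 reads). These recovered reads state depth and feed 1 alternative. Genes with a mean TPM of at least 1 were tested with limma 3.58.1 in R 4.3.3 (lmFit, eBayes with trend) on log2(TPM + 1), a two-sided test of genotype with no covariate. Every adjusted p is from this test with Benjamini-Hochberg adjustment over 15717 genes unless an alternative is named, and a gene was called under 0.05. Log2 differences understate changes of low genes. Exact permutation tests used all 70 arrangements of the libraries.

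Members and gene lists were chosen with earlier results of these data known. Named genes were the members, the other mitochondrial protein and rRNA genes, called tRNA genes, up to 3 called genes of each nuclear list with the smallest p, Tfam, Polrmt, Lrpprc and Ppargc1a, annotated nuclear copies of members with a mean TPM of at least 1, and the 5 genes most like and most opposed to the members (mean TPM of at least 10), of which 1 is not reported here. The planned ratio of mt-Nd4l to mt-Nd4 could not be formed, since mt-Nd4l is listed at 0. Shared sequence was sought as runs of 50 bases among all GENCODE M21 transcripts, either orientation, with Biopython 1.88 for identity. Alternatives changed the pseudocount, the filter, the scaling, the variance model, the weights, the covariates or the libraries.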

Additional observations from a re-analysis of the deposited data

Results flagged for a closer look

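Dixon's gap test was applied to 128 groups of 4 values each. It singled out 1 library in 7 of them, and chance alone singles out about 1 in 20. Mt-Ti, the isoleucine tRNA gene beside mt-Nd1, stood at 367.7 TPM in trex replicate 2, where the other trex libraries held 59.2 to 62.8 TPM and wt held 146 to 180 TPM. With all libraries its adjusted p in limma was 0.366. Mt-Ta, the alanine tRNA gene, stood at 13.3 TPM in wt replicate 1, where the other wt libraries held 29.8 to 32.4 TPM. These levels rested on 5 recovered reads in wt replicate 1 and 12 to 13 in the other wt libraries, so counting error is large. Top1mt stood at 39.7 TPM and Tfam at 127.3 TPM in trex replicate 1, where the other trex libraries held 23.8 to 25.9 TPM of Top1mt and 104.8 to 106.0 TPM of Tfam. Bnip3 stood at 78.8 TPM in wt replicate 2, where the other wt libraries held 61.5 to 62.3 TPM. In wt replicate 1, Wars stood at 168.9 TPM (others 177.7 to 179.3 TPM), and the mean log2 level of ATP synthase nuclear subunits at 7.03 (others 6.91 to 6.93).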

How the results depend on the processing

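The measured members kept lower means in trex, and 0 of 7 were called, under pseudocounts of 0.1 and 5, other filters, 3 scalings, eBayes without a trend, the replicate block and sex as a covariate. Array weights called 7 and voom on recovered reads called 1. With 1 library left out, 0 to 6 were called. Over all tested genes 1369 were called, against 694 without a filter, 5524 with array weights, 687 with the replicate block, 39 with sex as a covariate and 201 to 2911 with 1 library left out. The mean share of the members in recovered reads, which are not divided by length, was 1.39% in trex and 2.21% in wt. The difference of the mt-Nd6 to mt-Nd5 ratio ran from -0.10 to 0.212 with 1 library left out. Same-numbered libraries deviated from their group means with correlations of 0.162, -0.0225, -0.0045 and 0.252, and 2 of 4 trex libraries correlated best with their own number, so the numbers were not taken to pair the samples. The replicate block left the ratio differences at 0.064 for mt-Nd6 over mt-Nd5 and 0.331 for mt-Co1 over mt-Nd1. That outcome was fixed in advance, since every replicate number occurs in each group. The block changed no call of a member. It ended the calls of Angel2, Mrps22, Lonp1 and Higd1a, as did dropping the filter or the trend. Dropping the filter also ended those of Top1mt and Mrpl34, and dropping the trend also ended that of Top1mt. The 10 tRNA and 6 protein genes at 0 have no depth-based limit here, since an exact 0 in these files can be a failed estimate.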
